A study of Mus musculus with 6 samples.

Results

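The Btg and Tob antiproliferative family was followed in RNA of DN3a thymocytes through its 5 genes Btg1, Btg2, Btg3, Tob1 and Tob2. They were chosen by gene symbol among the 41254 symbols of the deposited table, all transcripts of a symbol being summed, and all 5 were among the 14653 genes that passed the filter on low counts. DN3a thymocytes are early T cell precursors, negative for CD4 and CD8, in which the beta chain gene of the receptor is being rearranged. The libraries came from adult C57BL/6 mice, 3 labelled wild type and 3 with the genotype Tg_Cd2_GATA3, called transgenic here. GATA3 is a transcription factor of the T lineage, and the study's title ties its amount to allelic exclusion at the beta locus. Which parts of Cd2 the transgene carries, how many founder lines were used, and whether a library pools animals could not be read from the labels. P-values therefore measure only the spread between these libraries, which may be technical in part. Values of a group are listed in the order of its replicates 1, 2 and 3.

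Proteins of this family share an amino-terminal domain that binds the CAF1 deadenylase subunits Cnot7 and Cnot8 of the CCR4-NOT complex, which shortens the poly(A) tails of mRNAs. Btg1 and Btg2 are known for keeping T cells quiescent, and Tob1 for restraining T cell activation. Btg2, also called Pc3 or TIS21, is known as a target of p53 and as an immediate early gene, one that is transcribed within minutes of a stimulus.

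The stretches before the starts of Btg2 and Btg1 are shown because these are the family's most abundant genes, and Btg2 is the member whose groups stood apart. Each has the 250 bases before the RefSeq start on GRCm38.p6, with capitals for CCAAT (the CCAAT box), TATAAA (the TATA box) and TGACG (the core of the cyclic AMP response element bound by CREB and ATF factors), each searched on both strands.
Btg2, chr1:134079156-134079405, minus strand: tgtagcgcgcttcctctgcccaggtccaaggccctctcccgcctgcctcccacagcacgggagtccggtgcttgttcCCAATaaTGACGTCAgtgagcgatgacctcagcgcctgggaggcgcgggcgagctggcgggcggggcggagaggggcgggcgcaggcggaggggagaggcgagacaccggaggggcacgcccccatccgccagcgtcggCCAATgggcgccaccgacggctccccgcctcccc
Btg1, chr10:96616751-96617000, plus strand: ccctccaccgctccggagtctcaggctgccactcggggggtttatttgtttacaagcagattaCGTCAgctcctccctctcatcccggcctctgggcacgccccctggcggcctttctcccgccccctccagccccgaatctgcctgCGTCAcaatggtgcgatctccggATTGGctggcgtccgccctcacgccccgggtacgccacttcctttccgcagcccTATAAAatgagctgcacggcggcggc

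The Btg2 stretch held the full element TGACGTCA, 166 bases before the start, which 1.55% of the 32851 windows of this length in the RefSeq table also hold. That palindrome counts as a TGACG match on each strand. Btg1 had no full element and 2 matches to TGACG, found in 17.8% of windows, at 103 and 187 bases before the start. It also had TATAAA 26 bases before the start, a word found in 12.4% of windows, and Btg2 had none. CCAAT, present in 33.8% of windows, matched 2 times in Btg2 and 1 time in Btg1. Of the words that GATA factors bind, only AGATAA and TGATAA were searched, and other variants were not. At least 1 of these words is in 16.6% of windows, and neither was in the 6 windows of the 5 genes (Btg3 has 2). A match is a description of letters, not of a bound site.

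Libraries held 39022281 to 46985605 fragments assigned to transcripts. Gata3 stood at 49.1, 38.2 and 43.5 CPM (fragments relative to the TMM-scaled library total) in the wild type and at 58.6, 53.6 and 61.6 CPM in transgenic libraries, with no overlap (log2 fold change 0.41 ± 0.10 SE, edgeR quasi-likelihood test, adjusted p = 0.17). Of 19 alternatives 3 called Gata3 higher, DESeq2 (adjusted p = 0.00698), edgeR with a covariate for Y-linked RNA (adjusted p = 0.0416) and edgeR without wild-type replicate 1 (adjusted p = 0.0255), and the highest adjusted p was 0.514. The transgene has no entry of its own in the table. Y-linked genes had 18522 fragments in wild-type replicate 1, 16840 in transgenic replicate 3 and 16 to 26 in the others. All 12 markers of DN3 cells were above 1 CPM, and they summed to 8353 to 9183 CPM (wild type) and 8886 to 9278 CPM (transgenic). Myeloid markers summed to 20.5 to 24.6 and 24.0 to 27.8 CPM, B cell markers (2 of 6 above 1 CPM) to 146 to 172 and 134 to 150 CPM with Pax5 at 0, and natural killer markers to 240 to 307 and 203 to 293 CPM with Ncr1 and Eomes at 0. Markers of later thymocytes summed to 558 to 703 and 636 to 739 CPM, of thymic epithelium to 74.8 to 84.2 and 77.4 to 91.6 CPM, and of erythroid cells to 0.53 to 3.19 and 2.36 to 6.69 CPM. In bulk RNA, fewer cells of a type and less RNA per cell cannot be told apart.

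Btg2 was the most abundant member in every library when levels were set per transcript length. In FPKM (fragments relative to transcript length and library total), Btg2 was at 157, 135 and 119 in the wild type and at 186, 177 and 169 in the transgenic group. Its mean over the 6 libraries, 157 ± 25.5 FPKM (SD over both groups, n = 6), exceeded that of 96.6% of the tested genes. By group the Btg2 means were 137 ± 18.9 FPKM (wild type) and 177 ± 8.26 FPKM (transgenic, SD, n = 3 each). Btg1 came next at 35.7 ± 4.51 FPKM, a level 4.40-fold below Btg2, and the ranges of these genes did not meet. Tob2 stood at 26.7 ± 2.44 FPKM and Btg3 at 20.9 ± 3.27 FPKM (SD over both groups, n = 6 each). Neighbours among these 3 overlapped over the libraries, Btg1 at 28.9 to 42.5, Tob2 at 24.0 to 29.7 and Btg3 at 16.4 to 25.4 FPKM, although Btg1 was above Tob2 and Tob2 above Btg3 within 6 of 6 libraries. Tob1 was lowest, at 2.90 ± 0.36 FPKM, 7.18-fold below Btg3, and 32.8% of tested genes had a lower mean. The Btg3 sum includes a 442-base transcript estimated at 4.95 to 12.1 FPKM. From the 1414-base Btg3 transcript alone the range was 9.40 to 15.1 FPKM. From the 3994-base Tob2 transcript alone it was 19.1 to 23.3 FPKM, so the overlap of Tob2 and Btg3 depends on the short transcripts.

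Btg2 made up 61.8 to 68.3% of the FPKM summed over the 5 genes of a library, Btg1 13.4 to 15.6%, Tob2 9.60 to 12.4%, Btg3 6.35 to 9.87% and Tob1 1.05 to 1.32%. Btg4, the family's germline relative, had 0 fragments in each library.

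**Figure D1:**
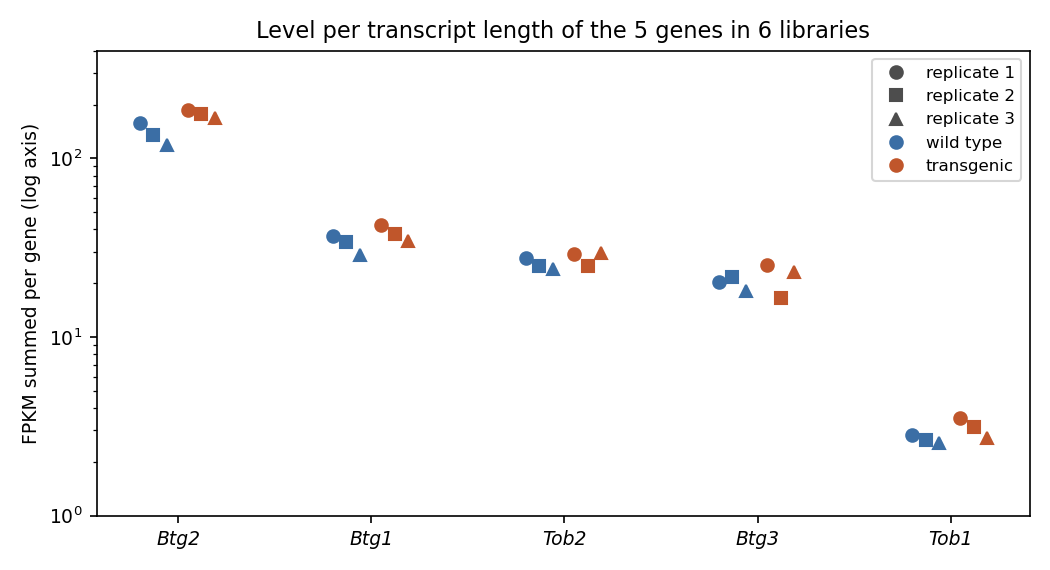
FPKM summed per gene (y axis, log scale) of the 5 genes in each library, ordered by mean level (blue wild type, orange transgenic; circle, square and triangle replicates 1, 2 and 3). Btg2 lies at 119 to 186 FPKM above all others, Btg1, Tob2 and Btg3 lie between 16.4 and 42.5 FPKM, and Tob1 lies at 2.54 to 3.52 FPKM.

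The comparison of transgenic with wild-type cells bears on RNA levels with and without the transgene, and GATA3 protein was not measured in these libraries. The log2 fold change of each of the 5 genes lay above 0, as it did for 50.2% of all genes tested, and their median was 0.21 against 0.001 over all genes. None of the 5 passed the threshold of an adjusted p under 0.05 in edgeR's quasi-likelihood test, which called 0.0136% of the genes tested. At an unadjusted p under 0.05, Btg2 alone was higher, where 5.71% of all genes were. DESeq2 called 1 of the 5, Btg2, higher, where it called 1.76% of the genes it adjusted over.

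Btg2 (ENSMUSG00000020423, chromosome 1, 134075170 to 134079120, minus strand, mm10 coordinates) was read through 1 transcript of 2743 bases with 2 exons, both coding in part. Wild-type libraries held 17639, 14715 and 12649 of its fragments, or 387, 317 and 280 CPM. Transgenic libraries held 18892, 15977 and 15348 fragments, or 453, 408 and 390 CPM. Every transgenic value lay above every wild-type value, an order that 8.73% of tested genes showed (10.1% showed the opposite one), but the gap between wild-type replicate 1 and transgenic replicate 3, at 387 and 390 CPM, was small beside the spread within either group.

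The Btg2 means were 328 ± 54.1 CPM in wild-type and 417 ± 32.3 CPM in transgenic cells (SD, n = 3 each), 1.27-fold higher in the transgenic group. On the log2 scale the change was 0.35 ± 0.11 (SE), 95% interval 0.10 to 0.59 (edgeR, unadjusted p = 0.0101, adjusted p = 0.22). Its p-value ranked 671 among the tested genes. DESeq2 gave the same size, 0.35, with an adjusted p of 0.0111, and the 20 alternatives spanned adjusted p-values of 0.0111 to 0.567. The authors' deposited table gives the Btg2 transcript a log2 fold change of 0.37, p = 7e-04 and q = 0.176, not marked significant.

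The Btg2 call differed with the libraries used. Without wild-type replicate 1 the log2 fold change of Btg2 was 0.48 and passed (edgeR, adjusted p = 0.0184), in a fit that called 0.992% of genes higher and 2.32% lower. Without both libraries with Y-linked RNA it was 0.53 and passed as well (edgeR, adjusted p = 0.0187), where 0.432% of genes were called higher. Left out in turn, wild-type replicate 3 gave the lowest value, 0.25 (edgeR, adjusted p = 0.525).

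**Figure D2:**
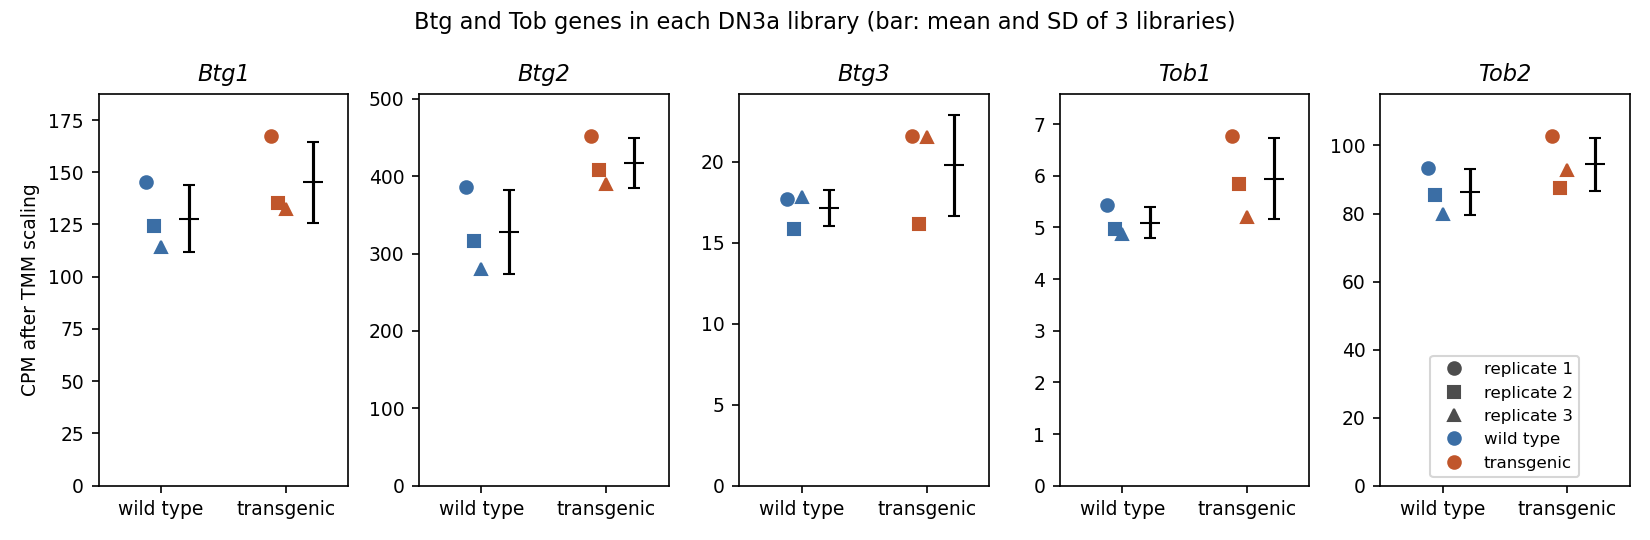
CPM after TMM scaling (y axis, from 0) of each gene in wild-type (blue) and transgenic (orange) libraries, circle, square and triangle for replicates 1, 2 and 3, with the mean and SD of 3 libraries as a bar. Btg2 is the gene whose groups do not overlap, at 280 to 387 and 390 to 453 CPM.

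Btg1 (ENSMUSG00000036478, chromosome 10, 96617006 to 96622809, plus strand) is the closest relative of Btg2 and acts beside it in quiescent T cells. Its level was 145, 124 and 114 CPM in the wild type and 168, 135 and 132 CPM in the transgenic group. Wild-type replicate 1 lay above transgenic replicates 2 and 3, so the groups overlapped. The means were 128 ± 15.9 and 145 ± 19.5 CPM (SD, n = 3 each), a log2 fold change of 0.18 ± 0.11 (SE) with a 95% interval from -0.06 to 0.42 (edgeR, adjusted p = 0.509). The interval holds both no change and a rise as large as that measured for Btg2. Without transgenic replicate 1 the value was 0.07, and without wild-type replicate 1 it was 0.28, with adjusted p of 0.831 and 0.161 (edgeR).

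Tob1 and Tob2 are the long members, whose carboxy-terminal part binds poly(A) binding protein. Each has its coding sequence in 1 exon. Tob1 (ENSMUSG00000037573, chromosome 11, 94211454 to 94215495, plus strand) was at 5.44, 4.97 and 4.87 CPM in the wild type and at 6.78, 5.85 and 5.21 CPM in the transgenic group. Only transgenic replicate 3 lay within the wild-type range. With 205 to 283 fragments a library, its log2 fold change of 0.22 ± 0.18 (SE) had the widest 95% interval of the 5, from -0.18 to 0.62 (edgeR, adjusted p = 0.647).

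Tob2 (ENSMUSG00000048546, chromosome 15, 81848272 to 81858796, minus strand) had 93.5, 85.4 and 79.9 CPM in the wild type and 103, 87.6 and 92.7 CPM in the transgenic group. Wild-type replicate 1 was above transgenic replicates 2 and 3. The log2 fold change, 0.13 ± 0.08 (SE), was the smallest of the family, with a 95% interval from -0.05 to 0.31 (edgeR, adjusted p = 0.53). The symbol covers a second gene identifier at the same locus, ENSMUSG00000078960, not found in GENCODE M21, with an 861-base transcript that took 4.30 to 6.61% of the Tob2 fragments. Without it the log2 fold change was 0.13 as well.

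Btg3 (ENSMUSG00000022863, chromosome 16) lies at 78359860 to 78377192 in the table, on the minus strand, and GENCODE M21 extends the gene down to 78332637, over the opposite-strand gene Cxadr. It was at 17.7, 15.9 and 17.9 CPM in the wild type and at 21.6, 16.2 and 21.5 CPM in the transgenic group. Transgenic replicates 1 and 3 were above all wild-type libraries and transgenic replicate 2 was among them. The log2 fold change was 0.21 ± 0.13 (SE), with a 95% interval from -0.09 to 0.50 (edgeR, adjusted p = 0.555).

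The Btg3 value depended on how its transcripts were weighted. A 442-base transcript held up to 22.8% of the Btg3 fragments, the share of wild-type replicate 2, and least in transgenic replicate 2, where the 1414-base transcript held 91.0%. From the 1414-base transcript alone it was 0.26 on the log2 scale (edgeR, adjusted p = 0.475), while on log2(FPKM + 1), where the short transcript weighs more, it was 0.09 (limma, adjusted p = 0.862). The authors' deposited table gives 0.28 for the long and -0.12 for the short transcript, both at q = 0.998.

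The 5 genes share no stretch of 50 bases with one another in GENCODE M21, but some share sequence with other genes. Of the 50-base words of the long Btg3 transcript, 51.8% also occur in Gm7334, a processed pseudogene on chromosome 17, against 2.63% of those of Btg1 in the pseudogene Gm14519, 3.90% of those of Tob2 in an antisense gene, Gm49476, and 0 of those of Btg2 and Tob1. The table gives Gm7334 1 to 24 fragments a library, against 634 to 903 for Btg3. How reads that fit both were divided is not stated, nor whether strand was used, so the level of Btg3 is less certain than the others. The pseudogenes and the antisense gene were named after their values were seen.

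Ratios within a library do not depend on scaling, so they describe the proportions of the members. Btg2 was 4.27, 3.98 and 4.13 times as abundant as Btg1 per length in wild-type replicates 1, 2 and 3, and 4.37, 4.69 and 4.88 times in the transgenic group. Every transgenic ratio was above every wild-type ratio, and the same held for Btg2 over Tob2, at 4.97 to 5.65 and 5.70 to 7.11. Of the 10 pairs of members, these 2 did not overlap. Each had an exact two-sided permutation p of 0.1, the smallest that 3 against 3 libraries allow, and 0.5 after Benjamini-Hochberg adjustment over the 10 pairs. Both pairs hold Btg2, the member whose own groups did not overlap, so they are not separate results. The share of such pairs over all tested genes was not computed, so the count of 2 cannot be read as particular to the members. The log2 ratio of Btg1 to Tob1 averaged 3.63 in the wild type and 3.61 in the transgenic group (exact permutation p = 0.8).

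**Figure D3:**
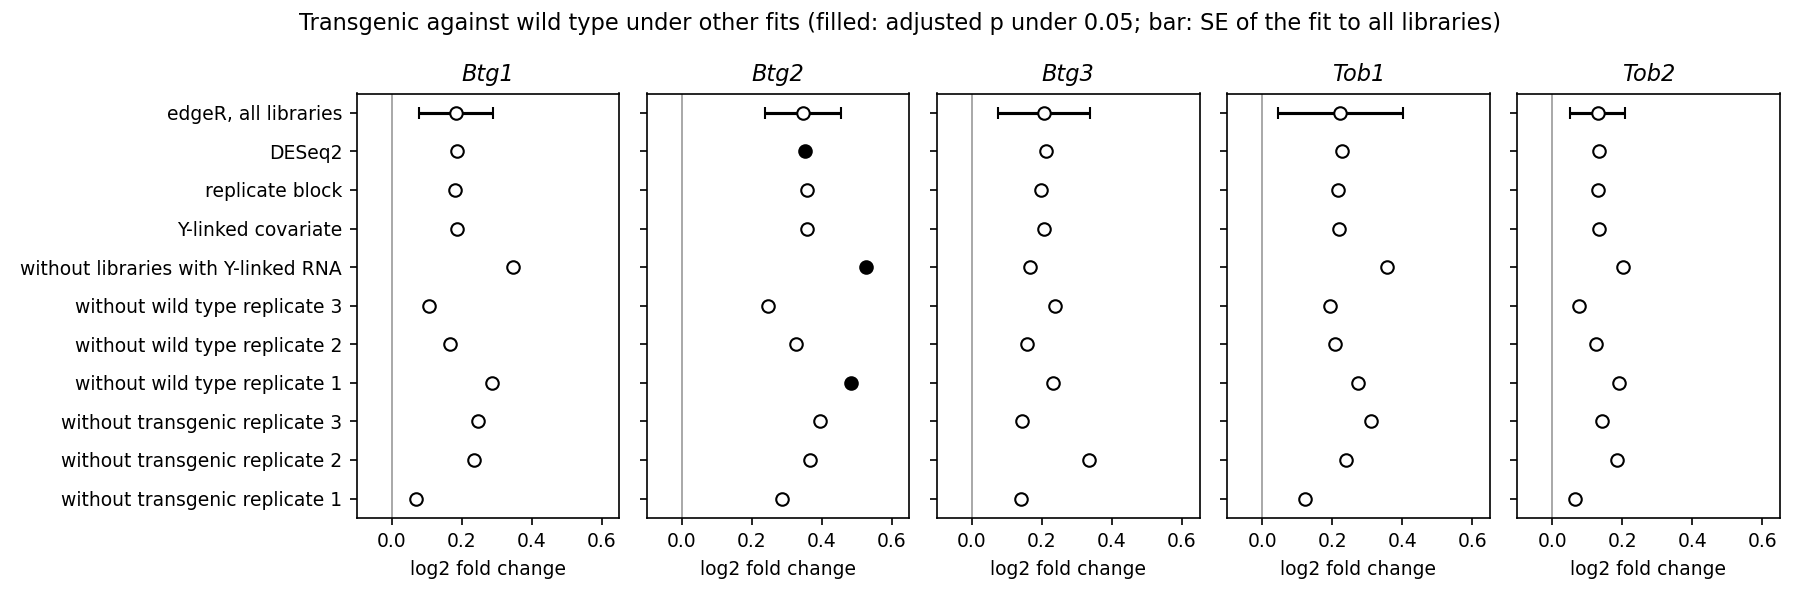
Log2 fold change of transgenic against wild-type cells (x axis) of each gene in edgeR's fit to all libraries, with its SE, and under DESeq2, added covariates and the removal of libraries. Filled points have an adjusted p under 0.05. All points lie above 0, and the filled ones belong to Btg2, with 0.35 in DESeq2, 0.48 without wild-type replicate 1 and 0.53 without the libraries with Y-linked RNA. DESeq2 gave no adjusted p for Tob1.

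Neither edgeR nor DESeq2 called a gene of the CCR4-NOT complex, through which the family acts. Of its 12 tested genes 6 lay above 0 and 6 below, and the median was 0.01. At an unadjusted p under 0.05, edgeR had 1 of them lower, Rqcd1, where 7.70% of all genes were lower. Rqcd1, which encodes the subunit now named CNOT9, was at 101 ± 7.07 CPM in wild-type and 86.7 ± 3.59 CPM in transgenic cells (SD, n = 3 each). Its log2 fold change was -0.23 ± 0.07 (SE, edgeR, adjusted p = 0.20). The gene with the next smallest p, Cnot6l, a deadenylase subunit, had a log2 fold change of 0.10 ± 0.08 (SE). Cnot7 and Cnot8, named for their binding to Btg and Tob proteins and after their values were seen, had -0.09 ± 0.08 and 0.06 ± 0.06 (SE). Of 10 tested genes of decapping and decay, which follow deadenylation, 5 lay above 0 and none was called, the smallest p belonging to Dcp1b at 0.17 ± 0.10 and Lsm1 at -0.14 ± 0.10 (SE).

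Among 8 tested genes of other deadenylases and poly(A) binding proteins, 3 lay above 0, with a median of -0.02. EdgeR called none, and DESeq2 called 2 higher, where it called 1.76% of the genes it adjusted over. These were Pan3, the partner of the Pan2 deadenylase, at 0.19 (adjusted p = 0.0182) and Paip1, which binds poly(A) binding protein, at 0.22 (adjusted p = 0.0331). Of 12 tested RNA-binding proteins that bring CCR4-NOT to mRNAs, 10 lay above 0, with a median of 0.10. One of these, Zfp36l2, which binds AU-rich mRNAs, rose from 294 ± 17.4 to 440 ± 24.4 CPM (SD, n = 3 each; log2 fold change 0.58 ± 0.07 SE, edgeR, adjusted p = 0.0444), and it is 1 of the 2 genes that edgeR called in all. Its log2 fold change was 0.50 to 0.63 over 19 alternatives, of which 11 called it, and it did not pass when any library but wild-type replicate 1 was left out (edgeR and limma, highest adjusted p over the alternatives 0.40). DESeq2 called Zfp36l2 and Tnrc6c, a scaffold of microRNA silencing, higher, again beside 1.76% of the genes it adjusted over.

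Of 8 tested genes for proteins that bind or modify the family, 4 lay above 0 and 4 below, and edgeR called none. Smad3, a transducer of TGF-beta that Tob proteins can bind, stood at 112 ± 6.20 and 131 ± 4.01 CPM (SD, n = 3 each, edgeR, adjusted p = 0.159). DESeq2 called Smad3 higher (adjusted p = 0.0289), where it called 1.76% of the genes it adjusted over. Skp2, a ubiquitin ligase subunit that targets Tob1, stood at 50.7 ± 4.32 and 41.3 ± 1.99 CPM (SD, n = 3 each; edgeR, adjusted p = 0.204). Without wild-type replicate 1 it was the single gene of this list that edgeR called lower (adjusted p = 0.0363), where 2.32% of all genes were.

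**Figure D4:**
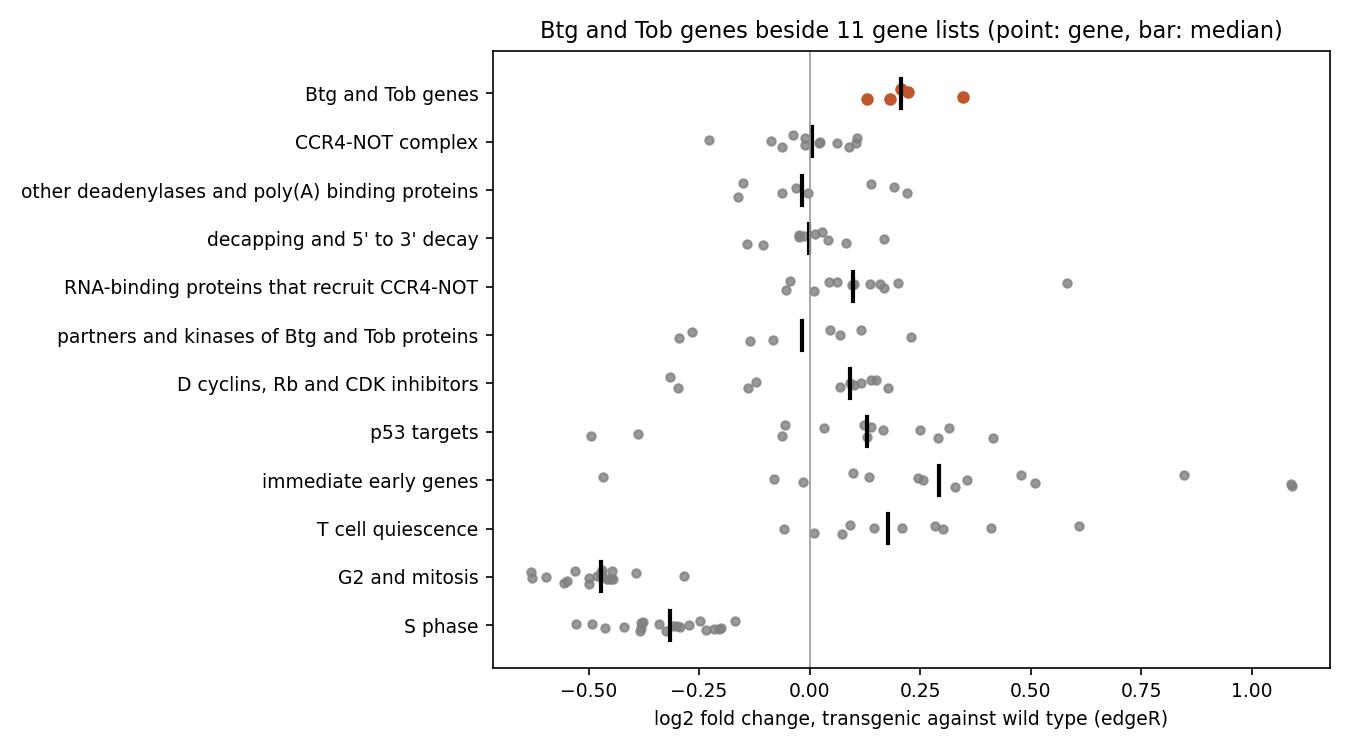
Log2 fold change (x axis, edgeR) of the 5 Btg and Tob genes (orange) and of the tested genes of 11 lists (grey), 1 point a gene, with the median as a bar. The Btg and Tob genes have a median of 0.21, CCR4-NOT genes of 0.01, immediate early genes of 0.29, T cell quiescence genes of 0.18 and G2 and mitosis genes of -0.47.

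Genes that share settings with the family were read beside it. The DESeq2 calls below stand beside 1.76% called higher among the genes it adjusted over. Of 10 tested genes of T cell quiescence 9 lay above 0 (median 0.18), and edgeR called none while DESeq2 called 3 higher, Pik3ip1, Foxo3 and Txnip. Pik3ip1, an inhibitor of PI3 kinase, was at 232 ± 17.5 CPM in wild-type and 308 ± 10.9 CPM in transgenic cells (SD, n = 3 each; edgeR, adjusted p = 0.135), and Foxo3 had 0.21 ± 0.06 (SE). Of 14 tested immediate early genes 11 lay above 0, with a median of 0.29. Jund and Jun, AP-1 factors, had 0.48 ± 0.08 and 0.51 ± 0.11 (SE), and DESeq2 called these 2 of the list higher while edgeR called 0. Of 13 tested p53 targets 9 lay above 0, with a median of 0.13, Trp53inp1 at 0.29 ± 0.11 and Ccng1 at 0.12 ± 0.05 (SE), and DESeq2 called the first of these higher. Cyclins D, Rb proteins and CDK inhibitors, 11 tested, had 7 above 0 and none called, Cdk6 at 0.18 ± 0.06 and Cdkn2d at -0.30 ± 0.11 (SE).

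Genes of cell division lay on the other side of 0 from the family. All 20 tested genes of G2 and mitosis and all 20 of S phase lay below 0, with medians of -0.47 and -0.32. Over all genes edgeR called none of either list, with 19 and 20 lower at an unadjusted p under 0.05, against 7.70% of all genes. DESeq2 called 19 and 16 lower, against 3.47%. The later-thymocyte markers Cd4, Cd8a and Cd8b1 also lay below 0, at -0.89, -1.34 and -1.15, with means of 6.84, 8.13 and 8.90 CPM in wild-type and 3.71, 3.22 and 4.03 CPM in transgenic cells (edgeR, adjusted p of 0.162, 0.221 and 0.159). The part of such cells in the values of the division genes was not tested. Ccnb2, cyclin B2, and Bub1b, a spindle checkpoint kinase, had -0.50 ± 0.09 and -0.47 ± 0.09 (SE). Rrm2, which serves nucleotide synthesis, and Cdc45, which serves replication forks, had -0.53 ± 0.09 and -0.49 ± 0.08 (SE).

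Levels in single libraries were set side by side. As log2(CPM + 0.5) minus the mean of the 6 libraries, Btg2 was at 0.07, -0.22 and -0.39 in the wild type and at 0.30, 0.15 and 0.08 in the transgenic group. The mean over G2 and mitosis genes was -0.04, 0.38 and 0.38 in the wild type and -0.18, -0.11 and -0.43 in the transgenic group. Wild-type replicate 1 was the wild-type library nearest the transgenic ones in both. Immediate early genes were at -0.07, -0.02 and -0.33 in wild-type and 0.02, 0.09 and 0.31 in transgenic replicates 1, 2 and 3, and p53 targets at 0.14, -0.22 and -0.04 and at -0.02, 0.04 and 0.10. Transgenic replicate 1, highest for Btg2, was lowest of its group in both of these lists. Within the wild type, replicate 1 was highest for p53 targets, as for Btg2, but replicate 2 was lowest. Wild-type replicate 3 was lowest for immediate early genes, as for Btg2, but replicate 2 was highest. T cell quiescence genes were at -0.001, -0.10 and -0.19 in the wild type and at 0.13, 0.04 and 0.11 in the transgenic group. In that list replicate 1 was the highest of each group, as for Btg2, but the lowest transgenic library was replicate 2, where Btg2 had replicate 3. The part of cell division, of handling, of p53 or of quiescence in the Btg2 values was not tested.

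**Figure D5:**
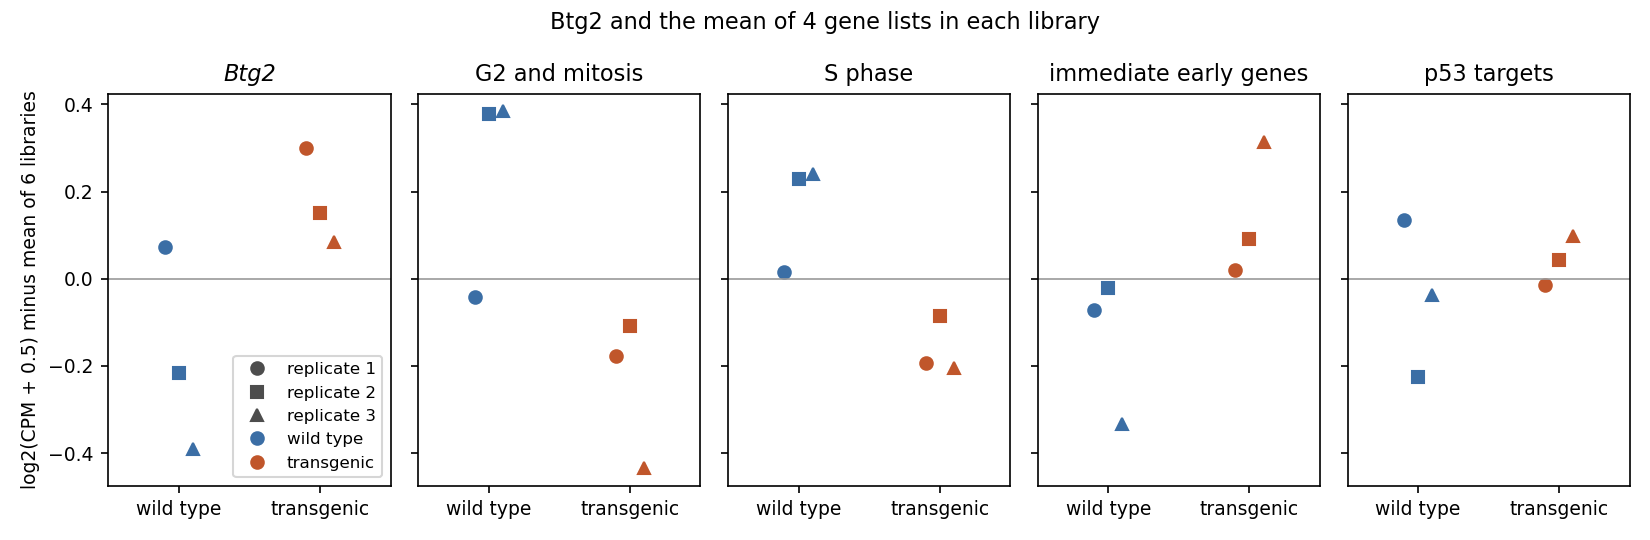
Level in each library (y axis, log2(CPM + 0.5) minus the mean of the 6 libraries) of Btg2 and, as the mean over the tested genes, of 4 lists (blue wild type, orange transgenic; circle, square and triangle replicates 1, 2 and 3). Wild-type replicate 1 lies at 0.07 for Btg2 and -0.04 for G2 and mitosis, nearer the transgenic libraries than the other wild-type libraries do.

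For each member, the genes whose profile over the 6 libraries was nearest were found among the 9034 tested genes with a mean of at least 10 CPM, by the root mean square difference of log2 values centred on each gene's mean. Those of Btg2 were Dclre1c, which encodes the Artemis nuclease that opens hairpins in V(D)J recombination, and Gm12504, at 0.05 each, where the own spread of Btg2 was 0.23. Dclre1c had 32.7 CPM in wild-type and 41.4 CPM in transgenic cells. The nearest to Btg1 were Emilin1 and Isoc2b (0.04 each), to Btg3 Rnf19b and Arhgef2 (0.05 each), to Tob1 Foxn3 and Plekha3 (0.04 and 0.05), and to Tob2 Tmem66 and Os9 (0.02 each). With all libraries edgeR called none of these 10 genes. Without wild-type replicate 1 it called Dclre1c and Gm12504 (adjusted p of 0.0363 and 0.0385), as it did without the libraries with Y-linked RNA (0.0489 and 0.0337), and DESeq2 called Gm12504 (adjusted p = 0.0252). Over the alternatives their adjusted p reached 0.596 and 0.530. Dclre1c and Gm12504 were picked for following Btg2 in these same libraries. Their passing in fits where Btg2 passed is therefore no separate support. Within the family, Btg1 was closest to Tob1 and to Tob2, at 0.07 each, while Btg3 was at 0.13 to 0.21 from the others.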

How the data were processed

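Total RNA of DN3a thymocytes was depleted of ribosomal RNA before library preparation, per the labels' protocols. The submitters' processing notes name TopHat2, Cuffdiff and mm10, but no annotation. Per the file headers, the table deposited by the authors has estimated counts of fragments and FPKM for 100144 transcripts in 6 libraries, and the authors' own log2 fold change, p-value and q-value.

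Estimated counts were summed per symbol and rounded. The 197 symbols at loci marked as failed estimates were left out, none of them a member or in a list. edgeR 4.0.16 (R 4.3.3) kept genes by filterByExpr (minimum count 10, minimum total 15), scaled by TMM and compared 3 with 3 libraries by its quasi-likelihood test, two-sided and without covariates, with Benjamini-Hochberg adjustment and a threshold of 0.05. Standard errors came from the F statistic, and intervals used 4 residual and 5.61 prior degrees of freedom. Biological variation had a common coefficient of 19.5%. DESeq2 1.42.0 and limma 3.58.1 gave alternatives. FPKM were used for levels.

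Members, lists and alternatives were chosen with earlier results of these data known. Named genes are the 5 members, Gata3, the called genes of each list (or the 2 with the smallest p), and the 2 nearest profiles per member. Cd4, Cd8a, Cd8b1, Cnot7, Cnot8, Tnrc6c, Txnip, the pseudogenes and the antisense gene were named after their values were seen. Same-group libraries gave a chi-square of 16.5 to 43.8 per gene, and none was a duplicate. Columns of unlabelled samples numbered 0.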

Additional observations from a re-analysis of the deposited data

How the results depend on the processing

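Each of the 99 values of the members under an alternative lay above 0, from 0.07 to 0.53 on the log2 scale, and 3 passed the threshold, all of Btg2: 0.35 in DESeq2, 0.53 without the libraries with Y-linked RNA, and one of the fits without 1 library, which ran from 0.25 to 0.48. Genes called over all genes, 2 with all libraries, numbered 497 in DESeq2 (167 higher, 330 lower), 256 with a covariate for Y-linked RNA (51 higher, 205 lower), 260 without the libraries with such RNA, 92 with the failed loci kept, 127 without a filter on low counts, 20 with a robust prior, 14 with the replicate block, 4 in limma on log2(FPKM + 0.1), 1 with a mean FPKM of at least 5, which leaves out Tob1, and 1 to 498 without 1 library, the highest without wild-type replicate 1. The causes were not tested. Of the other named genes Emilin1 alone changed sign, at -0.0837 and -0.0808 in limma on log2(FPKM + 0.1) and log2(FPKM + 1). Replicate numbers are shared by the groups, and the labels do not say whether they pair libraries. Same-numbered libraries deviated together with correlations of 0.18, 0.14 and 0.002 for replicates 1, 2 and 3. Not every library fitted its own number best, and so few libraries cannot decide whether they were paired. With the replicate block Btg2 had 0.36 (edgeR, adjusted p = 0.0721) and Btg1 0.18 (adjusted p = 0.152), and no member's call changed. With 3 libraries a group, the intervals of Btg1, Btg3, Tob1 and Tob2 reach from below 0 to rises of 0.31 to 0.62.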

Other observations

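Within each group, the libraries took a like order for most of the family. Transgenic replicate 1 had the highest CPM of all 6 libraries for Btg1, Btg2, Btg3, Tob1 and Tob2, and wild-type replicate 1 the highest of its group for all but Btg3. In the order of replicates 1, 2 and 3, the sum over the 5 genes was 648, 547 and 497 CPM in the wild type and 752, 653 and 642 CPM in the transgenic group, so that wild-type replicate 1 lay between transgenic replicates 2 and 3. In FPKM the sums were 245, 218 and 193 in the wild type and 286, 259 and 260 in the transgenic group, without overlap. Most of either sum is Btg2, so the order of the sums is not separate from that of Btg2. The share of such sums without overlap in other sets of genes was not computed.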
